A study of Mus musculus with 12 samples.

Results

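In RNA-seq libraries of mouse peritoneal macrophages, 8 transcripts grouped as mesothelial or stromal were followed, and which cells made them was not tested. They were the fibrillar collagen chains Col1a1, Col1a2 and Col3a1, the collagen-binding matrix proteins Dcn and Sparc, and Tm4sf1, Rgcc and Dmkn. They are 8 of the 12339 genes in the count table. They were chosen by their measured difference between diets in wild-type mice: Tm4sf1, Rgcc and Dmkn had the largest rises on high-fat diet there, and the matrix genes were set beside them as stromal transcripts. Their values in comparisons with wild-type libraries are therefore given as a description, without a test. The diet effect in the meKO libraries, which the choice did not name, was tested. The working name of the group, transcripts rising on diet, did not hold for Col1a1 in wild type, where the fitted difference between diets was -0.03 on the log2 scale with a standard error of 0.52. The other collagen chains there had positive differences that were smaller than their standard errors, 0.37 for Col3a1 and 0.25 for Col1a2.

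The mice were wild type (WT) or meKO, a genotype that the labels abbreviate and that the series title ties to myeloid protein kinase C epsilon, the product of Prkce. The line that carries out the deletion is not given in the sources used here. All mice, controls included, received AAV8PCSK9 at 8 weeks of age, a viral vector that removes the LDL receptor from liver cells, and either stayed on chow or ate a high-fat "Western" diet (HFD). After 4 weeks, sterile thioglycolate was used to draw macrophages into the peritoneum, and these were washed out. Each genotype on each diet gave 3 libraries, 12 in 4 groups. The titles number the libraries without saying whether each came from a separate mouse, so the p-values measure the spread between these libraries, which may be partly technical.

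The peritoneal cavity is lined by mesothelium, a sheet of epithelium-like cells that express keratins and the transcription factor Wt1, over a connective tissue that holds fibroblasts. Fibroblasts secrete the chains of fibrillar collagen, which are folded and hydroxylated in the endoplasmic reticulum, trimmed outside the cell and packed into fibrils. Small proteoglycans such as decorin bind these fibrils, and TGF-beta is a classic inducer of their synthesis. Macrophages clear and cleave collagen, and mature ones express little of it.

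Upstream sequence is shown for Tm4sf1, Rgcc and Dmkn, the genes that chose the group, and for Col1a2, a collagen chain to set against them. Each run is the 250 bases before a transcription start in RefSeq (GRCm38.p6), written 5′ to 3′ on the gene's strand, with matches to the searched motifs in capitals. RefSeq windows were matched for 6 of the 8 genes; Dcn and Col1a1 are named only. Dmkn has 3 annotated starts, of which the sequences before starts 1 and 3 are shown.
Tm4sf1, chr3:57301989-57302238, minus strand: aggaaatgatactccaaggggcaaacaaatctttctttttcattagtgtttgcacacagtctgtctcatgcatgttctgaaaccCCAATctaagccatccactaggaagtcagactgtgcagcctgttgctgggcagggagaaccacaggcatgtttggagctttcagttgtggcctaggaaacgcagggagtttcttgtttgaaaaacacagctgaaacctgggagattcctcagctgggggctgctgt
Rgcc, chr14:79301636-79301885, minus strand: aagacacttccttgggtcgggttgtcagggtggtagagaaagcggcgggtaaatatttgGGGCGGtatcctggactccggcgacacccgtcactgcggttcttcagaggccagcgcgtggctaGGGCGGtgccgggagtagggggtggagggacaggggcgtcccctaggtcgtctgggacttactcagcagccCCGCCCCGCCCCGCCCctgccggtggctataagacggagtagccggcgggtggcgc
Dmkn, start 1, chr7:30763506-30763755, plus strand: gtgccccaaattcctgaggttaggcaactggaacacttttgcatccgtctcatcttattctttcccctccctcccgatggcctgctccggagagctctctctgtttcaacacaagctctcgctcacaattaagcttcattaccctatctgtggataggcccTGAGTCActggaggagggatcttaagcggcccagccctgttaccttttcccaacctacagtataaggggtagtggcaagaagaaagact
Dmkn, start 3, chr7:30776155-30776404, plus strand: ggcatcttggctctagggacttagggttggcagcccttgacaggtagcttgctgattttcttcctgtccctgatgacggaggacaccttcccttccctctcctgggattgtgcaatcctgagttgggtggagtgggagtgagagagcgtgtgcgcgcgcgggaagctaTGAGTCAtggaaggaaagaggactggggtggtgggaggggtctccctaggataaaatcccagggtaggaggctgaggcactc
Col1a2, chr6:4505368-4505617, plus strand: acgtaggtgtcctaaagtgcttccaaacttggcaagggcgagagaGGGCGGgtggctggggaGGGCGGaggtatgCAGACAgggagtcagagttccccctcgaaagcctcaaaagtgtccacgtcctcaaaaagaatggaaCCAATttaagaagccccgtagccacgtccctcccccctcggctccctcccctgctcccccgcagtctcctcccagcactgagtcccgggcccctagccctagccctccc

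The search covered 6 motifs on both strands: the TATA box as TATAAA, the CCAAT box as CCAAT, the GC box as GGGCGG, the TEAD motif as GGAATG, the AP-1 motif as TGANTCA and the SMAD motif as CAGACA. The 3 genes that chose the group did not hold the same set of letters. The Rgcc window held GGGCGG at 5 places, 3 of them overlapping on the reverse strand, and 32.7% of all 32851 windows of this length held it. The Tm4sf1 window held CCAAT alone, a motif in 33.8% of all windows. The windows of Dmkn held TGANTCA at 2 places, 89 bases before start 1 and 82 before start 3, and 6.75% of all windows held it. The window of start 2 begins 2 bases after that of start 1 and holds the same match. The Col1a2 window held the CCAAT box, the GC box and the SMAD motif. The SMAD motif was also in the Col3a1 and Sparc windows and in 17.1% of all windows. The Col3a1 window, which is not printed, also held the TATA box (12.4% of all windows) and the TEAD motif (12.6%). G and C made up 66.8% of the Rgcc window, 62% of that of Col1a2 and 48% of that of Tm4sf1, against a median of 52.4% over all windows. A match describes letters in a window and does not show that a factor binds there.

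The libraries held 25844958 to 37282772 counts, and levels are given as CPM, a gene's counts relative to the total of its library after TMM scaling. All 10 macrophage markers examined were in the table, with Adgre1, which encodes the F4/80 antigen, between 513 and 697 CPM. Prkce lay between 0.950 and 1.78 CPM in the 6 meKO libraries and between 2.01 and 4.44 CPM in the 6 WT libraries. The groups did not overlap on either diet, although the fitted differences of -1.47 ± 0.31 (SE) on chow and -0.80 ± 0.31 on HFD did not pass (edgeR quasi-likelihood test, adjusted p = 0.0794 and 0.989). On chow, most libraries stood apart in some respect, including every WT chow library. Lyz2, the macrophage lysozyme, was at 69.3 CPM in meKO chow 2 and at 16293 CPM or more in every other library. The summed level of the 10 macrophage markers, Lyz2 among them, also differed between genotypes. The sum was 36846 to 60083 CPM in WT, 6380 CPM in meKO chow 2 and 22801 to 27983 CPM in the other meKO libraries. Prkce in meKO chow 2 was at 0.950 CPM, the lowest of the 12, and whether the low Lyz2 bears on how that library should be grouped was not tested. It is used as labelled, and values without it are given below. WT chow 3 and meKO chow 3 had the lowest Col1a1, Col1a2, Col3a1 and Sparc of all 12 libraries, and values without them are given below. In WT chow 1 and 2, genes deviated from their mean over the libraries with transcript length, at a Spearman's rho of 0.639 and 0.682 across 11532 genes, against -0.462 to 0.132 in the other 10 libraries.

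Together the 8 transcripts supplied 0.00518% to 0.0154% of a library's counts. Per kilobase of transcript, a scale that allows levels to be compared between genes, Dcn had the highest mean over the 12 libraries, at 22.2 CPM per kb. It was followed by Sparc at 5.39, Col3a1 at 4.10, Rgcc at 3.76, Col1a2 at 3.27, Col1a1 at 1.36, Dmkn at 1.18 and Tm4sf1 at 0.914 CPM per kb. The lowest Dcn library, at 11.2 CPM per kb, was above the highest library of any other member, which was Sparc in meKO HFD 3 at 9.49 CPM per kb. Every other pair of neighbours in this order overlapped across libraries. The rarest members rested on few counts, 19 to 278 for Tm4sf1, 21 to 142 for Dmkn and 33 to 239 for Rgcc, whereas Dcn had 698 to 1708. All 8 passed the filter on low counts, and the lowest member value in any library was 0.657 CPM. Every gene of the table reached at least 0.481 CPM in 6 of the 12 libraries, and every member stood above that level in every library.

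**Figure D1:**
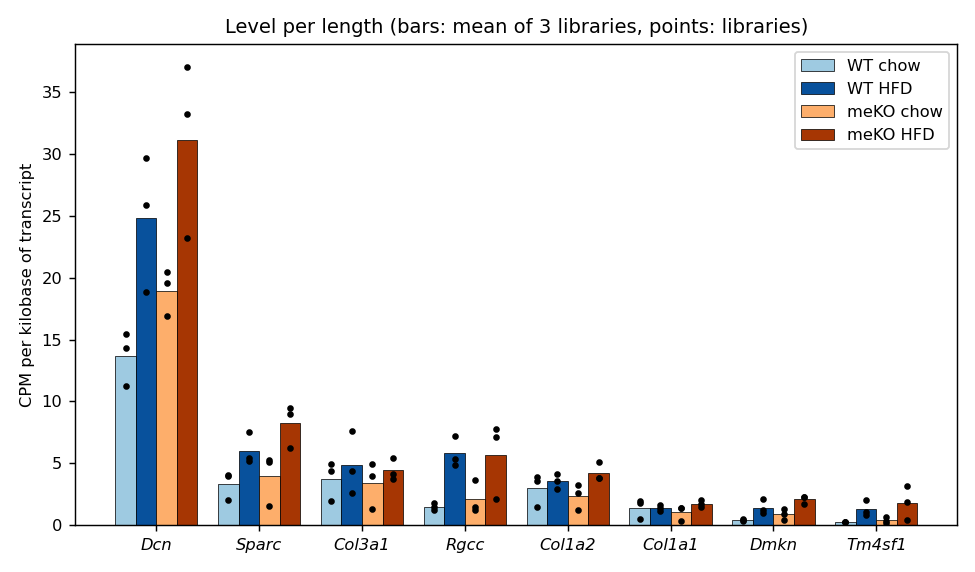
Mean level per kilobase of transcript of each member in the 4 groups (bars, 3 libraries each), with the single libraries as points. Dcn stands above all other members in every library, and Tm4sf1 has the lowest mean over the 12 libraries, at 0.914 CPM per kb.

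The 3 collagen chains differed more between libraries of a group than between diets in WT. Col1a1 and Col1a2 encode the chains that assemble into type I collagen, and Col3a1 encodes type III collagen, which forms finer fibrils in the same tissues. Col1a1 (chromosome 11, 94936224 to 94953042, GRCm38.p6) was at 11.4, 10.45 and 2.61 CPM in WT chow 1, 2 and 3 and at 9.48, 7.92 and 6.65 CPM in WT HFD 1, 2 and 3. WT chow 1 and 2 were above all 3 HFD libraries, and WT chow 3 was far below them. In meKO it was at 7.94, 7.92 and 2.07 CPM on chow and at 10.1, 8.43 and 11.99 CPM on HFD, where the groups did not overlap.

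Col1a2 (chromosome 6, 4505618 to 4541543) was at 20.7, 19.1 and 7.77 CPM on chow and at 22.2, 19.0 and 15.7 CPM on HFD in WT. In meKO it was at 17.3, 13.9 and 6.39 CPM on chow and at 20.4, 20.4 and 27.1 CPM on HFD. The WT groups overlapped and the meKO groups did not. Its profile over the 12 libraries was the nearest of all member pairs to that of Col1a1, with a root mean square difference of 0.253 between their z-scores. Per kilobase, Col1a1 was below Col1a2 in all 12 libraries, at 0.292 of it in meKO chow 3, 0.303 in WT chow 3 and 0.372 to 0.515 in the other 10.

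Col3a1 (chromosome 1, 45311538 to 45349706) was uneven among the HFD libraries of WT as well. It was at 24.3, 27.3 and 10.6 CPM on chow and at 42.5, 24.2 and 14.2 CPM on HFD in WT, and the single library WT HFD 1 was the highest of all 12. The meKO libraries held 27.2, 22.2 and 7.15 CPM on chow and 30.1, 23.0 and 20.8 CPM on HFD. The diets overlapped in both genotypes.

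Dcn encodes decorin, the small leucine-rich proteoglycan that coats collagen fibrils, and was the most abundant member. It lies on chromosome 10, 97479500 to 97518163. In WT it was at 19.7, 27.1 and 25.1 CPM on chow and at 52.2, 33.2 and 45.5 CPM on HFD. Levels in meKO were 36.0, 34.4 and 29.7 CPM on chow and 40.9, 65.2 and 58.4 CPM on HFD. The diets did not overlap in either genotype. On chow, all 3 meKO libraries were above all 3 WT libraries.

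Sparc encodes osteonectin, a secreted protein that binds collagen and helps its assembly, and lies on chromosome 11, 55394159 to 55420080. It was at 9.31, 9.15 and 4.59 CPM on chow and at 17.2, 12.4 and 11.9 CPM on HFD in WT. The meKO libraries held 12.1, 11.6 and 3.53 CPM on chow and 14.3, 20.7 and 21.8 CPM on HFD. The diets did not overlap in either genotype. Like the collagen chains, Sparc was lowest in WT chow 3 and meKO chow 3.

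Tm4sf1 encodes a membrane protein of the L6 family that is known from endothelium, mesothelium and tumours, and lies on chromosome 3, 57285611 to 57387736. It was near its lowest in all 3 WT chow libraries, at 0.820, 0.719 and 0.727 CPM, and at 3.43, 2.58 and 6.80 CPM in WT HFD. In meKO it was at 1.01, 2.23 and 0.657 CPM on chow and at 1.26, 10.6 and 6.15 CPM on HFD. The WT groups were far apart, whereas in meKO the HFD library 1 was below the chow library 2.

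Rgcc encodes a regulator of the cell cycle first known as a gene induced by complement, and lies on chromosome 14, 79288750 to 79301635. It was at 1.33, 1.11 and 1.62 CPM on chow and at 4.47, 4.92 and 6.59 CPM on HFD in WT. Levels in meKO were 3.34, 1.30 and 1.14 CPM on chow and 6.53, 1.95 and 7.15 CPM on HFD. The WT groups did not overlap, and in meKO the HFD library 2 was below the chow library 1.

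Dmkn encodes dermokine, a secreted protein of epithelia that also marks mesothelium, and lies on chromosome 7, 30763756 to 30781066. It was at 0.764, 0.686 and 1.06 CPM on chow and at 2.43, 1.93 and 4.27 CPM on HFD in WT. In meKO it was at 2.68, 1.87 and 0.829 CPM on chow and at 3.52, 4.62 and 4.65 CPM on HFD. It was the one gene of the trio whose diets did not overlap in either genotype.

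**Figure D2:**
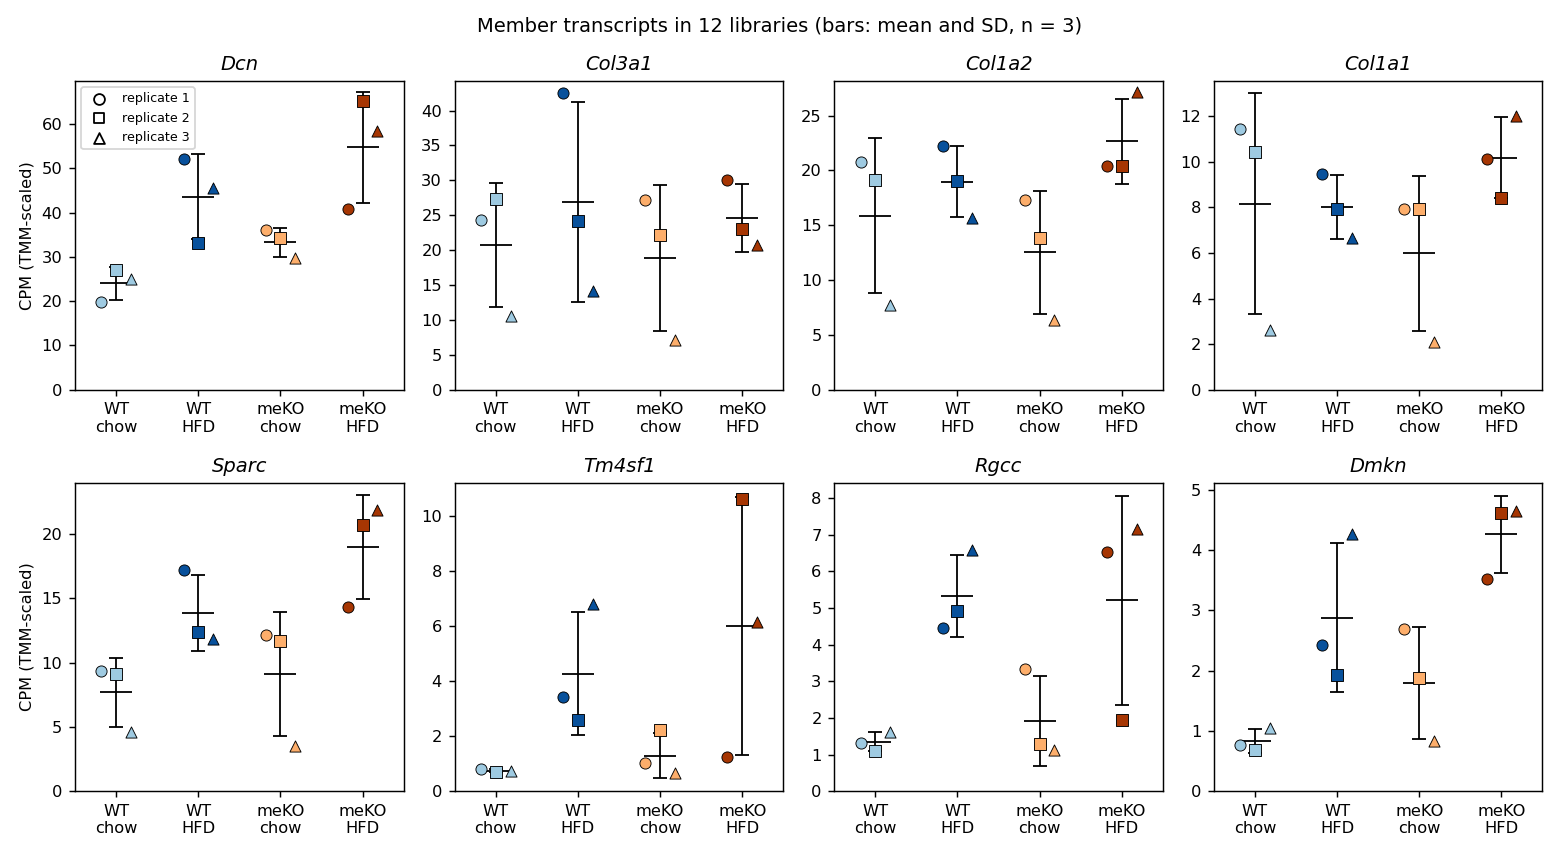
TMM-scaled CPM of the 8 members in the 12 libraries, 1 panel per gene with an axis that starts at 0, with the group mean and SD (n = 3). Replicate 3 of both chow groups (triangles) is lowest in Col1a1, Col1a2, Col3a1 and Sparc, and Tm4sf1, Rgcc and Dmkn are at 1.62 CPM or less in all WT chow libraries.

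In WT, HFD against chow, the members ranged from a fold near 1 for the type I collagen chains to more than 5 for Tm4sf1. The fitted fold was 5.63 for Tm4sf1, 3.93 for Rgcc and 3.45 for Dmkn, with log2 differences of 2.49 ± 0.69 (SE), 1.98 ± 0.46 and 1.78 ± 0.40. Dcn (0.86 ± 0.19) and Sparc (0.84 ± 0.39) were less than 2-fold apart, and the chains were at 0.37 ± 0.53 for Col3a1, 0.25 ± 0.36 for Col1a2 and -0.03 ± 0.52 for Col1a1. In this comparison 4 members, Dcn, Tm4sf1, Rgcc and Dmkn, were called higher at an adjusted p under 0.05, where 9.5% of all genes were called higher, 11.8% lower and 21.3% in either direction. HFD lay above chow without overlap for 5 members and for 19.4% of all genes. The members called were 0 without WT HFD 3 or WT chow 1, 1 without WT chow 2, 2 without WT HFD 1 and 2 with a correction for transcript length and GC content. Because this comparison chose members, nothing is read from these counts. The median member difference was 0.85, and that of all genes was -0.03. In bulk RNA, more cells of a type and more RNA per cell cannot be told apart.

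The WT values of the chains and of Sparc were lower without WT chow 3, and those of the chains were higher when transcript length and GC content were corrected for together. Without WT chow 3, Col1a1 was at -0.44, Col1a2 at -0.06, Col3a1 at 0.07 and Sparc at 0.59. With the correction, Col1a1 was at 0.56, Col1a2 at 0.74, Col3a1 at 0.80, Sparc at 0.80, Dcn at 0.52, Rgcc at 1.60, Dmkn at 1.72 and Tm4sf1 at 2.496. Dcn and Rgcc were no longer called with it. The separate parts of length and GC content were not tested.

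In meKO, HFD against chow, all 8 members had positive differences, and none passed the test adjusted over all genes. Tm4sf1 had the largest, 2.18 ± 0.66 (SE, edgeR quasi-likelihood test, adjusted p = 0.206), and its single libraries ran from 1.26 to 10.6 CPM on HFD. Rgcc was at 1.42 ± 0.45 (adjusted p = 0.207) and Dmkn at 1.23 ± 0.37 (adjusted p = 0.195). Among the matrix genes, Sparc was at 1.05 ± 0.39 (adjusted p = 0.261), Col1a2 at 0.85 ± 0.37 (adjusted p = 0.300), Col1a1 at 0.76 ± 0.52 (adjusted p = 0.473), Dcn at 0.72 ± 0.19 (adjusted p = 0.161) and Col3a1 at 0.38 ± 0.54 (adjusted p = 0.744).

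Few genes of any kind were called in meKO: 13 of 12339, or 0.105%, and 0 of the 8 members. At an unadjusted p under 0.05 the count was 6 of 8 members, all but Col1a1 and Col3a1, beside 1962 genes or 15.9% of the table. HFD lay above chow without overlap for 5 members, Dcn, Col1a1, Col1a2, Sparc and Dmkn, and for 10.3% of all genes. The median member difference was 0.95, where that of all genes was -0.01.

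DESeq2 called Dcn alone among the members (adjusted p = 0.0303). Voom with library quality weights called Dcn (adjusted p = 0.0466), Sparc (0.0480), Rgcc (0.0453) and Dmkn (0.0401). Single libraries also decided calls and sizes. Without meKO HFD 1, Dcn (0.89, adjusted p = 0.0389) and Tm4sf1 (2.67, adjusted p = 0.0234) passed. Without meKO HFD 2, Tm4sf1 was at 1.47, and without meKO chow 1, Rgcc was at 2.08.

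The low chow library, meKO chow 3, bore on the chains and on other members. Without it the median member difference was 0.66 rather than 0.95, and Dcn was at 0.64 rather than 0.72. Without meKO chow 3, Col1a1 was at 0.36, Col1a2 at 0.54, Sparc at 0.67, and the sign of Col3a1 turned, to -0.0031. Without meKO chow 2, the library with almost no Lyz2, Tm4sf1 was at 2.80, Sparc at 1.26 and Dcn at 0.73, and no member passed.

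**Figure D3:**
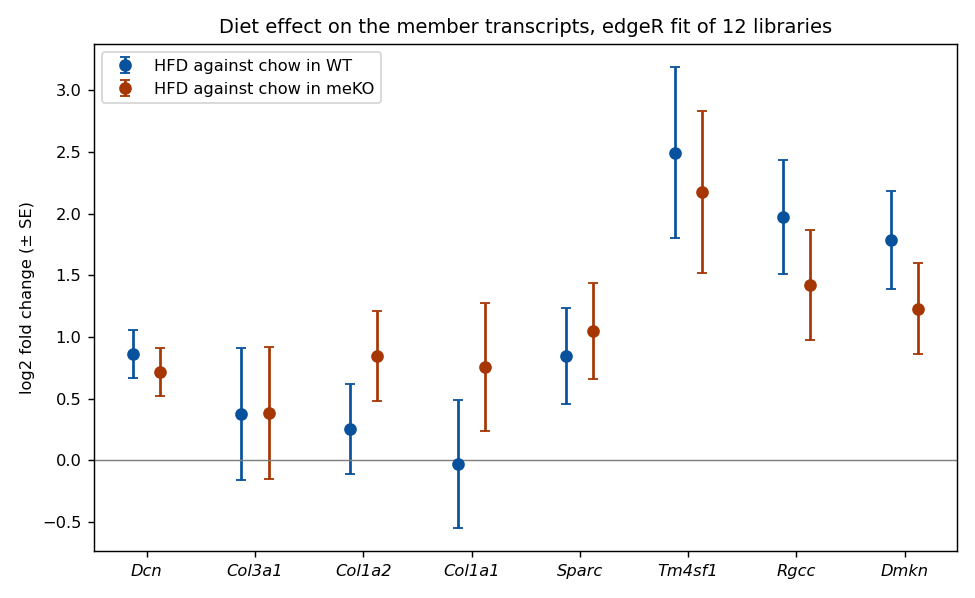
Log2 fold change between HFD and chow (points) with its standard error (bars) for each member in WT and in meKO, from 1 edgeR fit of the 12 libraries. All points but Col1a1 in WT (-0.03) are above 0, and the 3 largest in both genotypes are Tm4sf1, Rgcc and Dmkn.

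Between genotypes, the values of the collagen chains were smaller than their standard errors, and those of Dmkn and Dcn on chow were the largest beside theirs. These comparisons share the WT libraries that chose members and are a description. On chow, meKO minus WT was 1.11 ± 0.40 (SE, log2) for Dmkn, 0.79 ± 0.72 for Tm4sf1, 0.52 ± 0.47 for Rgcc, 0.47 ± 0.19 for Dcn and 0.25 ± 0.39 for Sparc. The chains were at -0.13 ± 0.54 for Col3a1, -0.34 ± 0.37 for Col1a2 and -0.44 ± 0.52 for Col1a1. Of the 8, Dcn alone had no overlap between the genotypes on chow. The share of all genes without overlap between genotypes was not counted, so nothing is read from this.

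On HFD, the same difference was 0.56 ± 0.36 for Dmkn, 0.47 ± 0.61 for Tm4sf1, 0.45 ± 0.38 for Sparc, 0.34 ± 0.52 for Col1a1, 0.33 ± 0.19 for Dcn, 0.25 ± 0.36 for Col1a2, -0.03 ± 0.43 for Rgcc and -0.13 ± 0.53 for Col3a1. The genotypes overlapped for every member. Each of the genotype comparisons called 10 of all genes, or 0.081% of the table.

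The diet difference in meKO minus that in WT ran from -0.56 ± 0.54 for Dmkn and -0.55 ± 0.64 for Rgcc to 0.59 ± 0.51 for Col1a2 and 0.79 ± 0.73 for Col1a1. It was called for 2 of all genes, or 0.0162%. The standard errors leave room for sizeable differences in either direction.

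Other genes of the members' pathways and of candidate source tissues were examined as lists. In WT on HFD, 9.5% of all genes were called higher and 11.8% lower by edgeR, and in meKO 0.105% were called. At an unadjusted p under 0.05 in edgeR the shares in either direction were 39.4% in WT and 15.9% in meKO. DESeq2 called 3451 of all genes in WT and 227 in meKO. The list counts below are to be read beside these. Of 43 collagen chain genes, 16 that are no members were in the table, and 0 were called in either diet comparison by edgeR or DESeq2, with 2 higher in WT and 5 in meKO at an unadjusted p under 0.05 in edgeR. Limma-voom called 1 in WT, and quality weights called 2 higher and 1 lower in WT and 2 higher in meKO. With the length and GC correction 2 were called higher in WT and 0 in meKO, with 9 and 11 higher at an unadjusted p under 0.05. In WT, 2 were called higher without meKO chow 3 and 1 without meKO chow 2, and 1 was called lower without WT chow 3. Their differences were positive for 12 in WT (median 0.33) and for 13 in meKO (median 0.80). The summed level of the 16 in WT was 15.4 to 36.1 CPM on chow and 40.6 to 59.9 CPM on HFD. In meKO the sum was 14.4 to 34.8 CPM on chow and 49.9 to 57.5 CPM on HFD. The diets thus did not overlap, and the lowest sums were again those of WT chow 3 and meKO chow 3. Col6a1 and Col6a2, chains of the beaded-filament collagen VI, had the highest levels of the 16, with differences of 1.11 ± 0.39 and 1.09 ± 0.43 in WT (adjusted p = 0.0614 and 0.0832) and 1.24 ± 0.39 and 1.28 ± 0.43 in meKO (adjusted p = 0.215 and 0.235). Most of the rise in the sum was in these genes. From chow to HFD in WT, mean Col6a1 went from 6.59 to 14.2 CPM, Col6a2 from 6.58 to 14.1 and the sum from 29.0 to 47.8. In meKO, Col6a1 went from 7.18 to 17.1 CPM, Col6a2 from 7.19 to 17.5 and the sum from 27.0 to 54.7.

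Of 23 genes for collagen folding and maturation, 3 were called higher in WT and 2 lower, beside 9.5% and 11.8% of all genes. Higher were Serpinh1, the collagen chaperone HSP47 (1.37 ± 0.34, adjusted p = 0.0203), P3h4 (1.72 ± 0.58, adjusted p = 0.0484) and Ppib (0.64 ± 0.17, adjusted p = 0.0224). Lower were P3h3 (-1.17, adjusted p = 0.00892) and Mia3, which serves the export of collagen (-0.47, adjusted p = 0.0358). In meKO 0 of the 23 passed by edgeR, 7 were higher and 2 lower at an unadjusted p under 0.05, and DESeq2 called 3 higher. Serpinh1 was at 1.42 ± 0.33 there (edgeR, adjusted p = 0.121). The WT count of higher genes was 0 without WT chow 1, WT chow 2, WT HFD 1 or WT HFD 3, and 5 without meKO HFD 2. The count of lower genes was 0 without WT HFD 3 or WT chow 1, and 1 without WT HFD 1, WT HFD 2 or WT chow 2.

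Of 20 other matrix glycoproteins and proteoglycans, Spp1, which encodes osteopontin and is abundant in macrophages, was called higher in WT (0.66, adjusted p = 0.0448) and Tgfbi lower (-0.92, adjusted p = 0.0127), and in meKO 0 were called by edgeR, 8 at an unadjusted p under 0.05 and 1 by DESeq2. Spp1 was not called without any 1 of the 6 WT libraries or meKO chow 1, and neither was Tgfbi without WT HFD 1, WT HFD 3 or WT chow 1. In the list for collagen uptake and cleavage, 3 of 11 genes were called higher in WT and 2 lower, beside 9.5% and 11.8% of all genes. Higher were the protease inhibitor gene Timp3 (1.62 ± 0.40), the cathepsin gene Ctsk (0.67 ± 0.15) and the macrophage elastase gene Mmp12 (0.86 ± 0.25). The count of higher genes was 0 without WT HFD 3, WT chow 1 or WT chow 2, 1 without WT HFD 1 and 5 without meKO HFD 1. Lower were the gelatinase gene Mmp9 (-1.96 ± 0.21) and the mannose receptor gene Mrc1 (-0.86 ± 0.16). Mmp9 was also the one list gene called in meKO (-1.27 ± 0.21, edgeR, adjusted p = 0.0367), a call that was lost without WT HFD 1, WT HFD 3, meKO HFD 2, meKO HFD 3, meKO chow 2 or meKO chow 3. The meKO call was also lost with scaling by library totals, by limma-voom and with only the 2 groups compared. It was lost as well without both chow libraries low in collagen.

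Of 19 TGF-beta pathway genes, 2 were called higher and 0 lower in WT on HFD with the length and GC correction. Without it, 1 was called higher and 3 lower, beside 9.5% and 11.8% of all genes. Lower were Ltbp3, which helps to secrete and store latent TGF-beta (-0.85 ± 0.22, edgeR, adjusted p = 0.0224), and the receptor genes Tgfbr2 (-0.68 ± 0.14, adjusted p = 0.0131) and Tgfbr3 (-0.77 ± 0.23, adjusted p = 0.0361). In meKO they were at -0.27 ± 0.22, -0.51 ± 0.14 and -0.18 ± 0.23 (adjusted p = 0.536, 0.171 and 0.712). The count of lower genes in WT was 0 without WT HFD 3, WT chow 1 or WT chow 2, 1 without WT HFD 1, 5 without meKO chow 2 and 6 without WT chow 3. Tm4sf19, the one other L6 family gene in the table, was at -0.01 ± 0.17 in WT and 0.32 ± 0.17 in meKO (adjusted p = 0.977 and 0.350).

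Of 20 mesothelial marker genes 14 were in the table, Dmkn among them. Of the other 13, 3 were called higher in WT on HFD and 1 lower, beside 9.5% and 11.8% of all genes. Krt19 (1.35 ± 0.32, adjusted p = 0.0178) and Krt8 (1.73 ± 0.45, adjusted p = 0.0223) encode keratins, Igfbp6 (0.91 ± 0.28, adjusted p = 0.0379) encodes a binding protein of insulin-like growth factors, and so does Igfbp5, which was lower (-1.28 ± 0.35, adjusted p = 0.0266). In meKO 0 passed by edgeR, 4 at an unadjusted p under 0.05, all higher, and 2 by DESeq2. There Wt1 came nearest and was at 0.760 to 0.958 CPM on chow and 2.16 to 2.54 CPM on HFD, a difference of 1.39 ± 0.27 (adjusted p = 0.0657). The median difference of the 13 was 0.65 in WT and 0.58 in meKO. Their summed level in WT was 20.1 to 26.3 CPM on chow and 27.9 to 30.6 CPM on HFD, without overlap. In meKO the sums overlapped, at 19.9 to 27.3 CPM on chow and 25.8 to 43.1 CPM on HFD. Msln, which encodes mesothelin, was between 0.170 and 0.873 CPM. The count of higher mesothelial genes in WT was 0 without WT HFD 1, WT HFD 3 or WT chow 1, and 1 without WT chow 2. Igfbp5 was not called without any 1 of the 3 WT HFD libraries, WT chow 1 or WT chow 2, nor with the length and GC correction.

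The smooth muscle genes Acta2 (1.42 ± 0.38, adjusted p = 0.0249) and Des (1.42 ± 0.38, adjusted p = 0.0244) were called higher in WT. They were 2 of the 3 mural genes in the table, beside 9.5% of all genes called higher. They were at 1.06 ± 0.37 and 1.59 ± 0.37 in meKO (edgeR, adjusted p = 0.238 and 0.115), and DESeq2 called 1 of the 3 there. The summed mural level in WT was 2.71 to 4.47 CPM on chow and 7.09 to 8.25 CPM on HFD. In meKO the sums overlapped, at 2.83 to 6.95 CPM on chow and 6.50 to 11.9 CPM on HFD. Without WT HFD 1, WT HFD 3 or WT chow 1 neither gene was called, and without WT chow 2 only 1 was.

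The 9 fibroblast genes that are no members had a median difference of -0.21 in WT with 0 called by edgeR and a median of 0.51 in meKO, also with 0 called. At an unadjusted p under 0.05, 2 were higher and 2 lower in WT and 5 were higher and 1 lower in meKO, and DESeq2 called 2 lower in WT and 2 higher in meKO. Their sum in WT was 44.5 to 73.6 CPM on chow and 30.8 to 43.1 CPM on HFD, without overlap, and in meKO 34.8 to 63.6 and 46.4 to 55.9 CPM. Most of it was Fstl1, at a mean of 37.4 CPM. Pdgfra, the receptor that defines many fibroblasts, averaged 1.52 ± 0.663 CPM (SD, n = 3) on chow and 2.49 ± 0.121 CPM on HFD in WT, and 1.63 ± 0.63 and 4.62 ± 1.30 CPM in meKO. Differences were positive for 4 of the 9 in WT and for 6 in meKO and negative for the rest, so Pdgfra does not stand for the list. Of 15 endothelial genes 3 that are no members were in the table, Cdh5 was not among them, and Vwf was called lower in WT (-0.57, adjusted p = 0.0351), a call lost without WT HFD 1, WT HFD 3, WT chow 1 or WT chow 2. No adipocyte marker of 8 was in the table. How far the amount of mesothelial, mural or fibroblast RNA takes part in the members' differences was not tested.

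**Figure D4:**
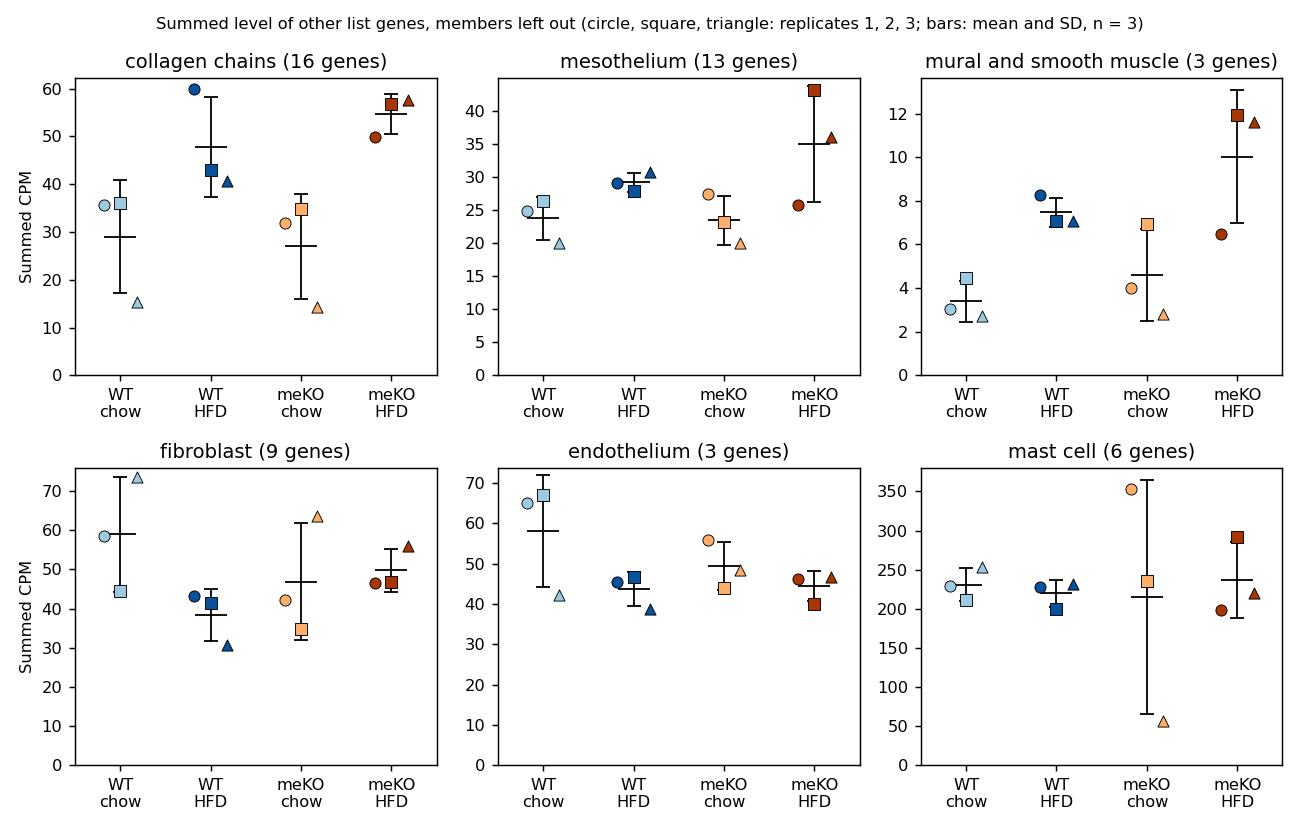
Summed TMM-scaled CPM per library of the list genes that are no members, for 6 lists, with the group mean and SD (n = 3) on axes that start at 0. The collagen chain sum is higher on HFD in both genotypes without overlap, and most of that rise is in Col6a1 and Col6a2. WT chow 3 and meKO chow 3 have the lowest collagen chain sums, 15.4 and 14.4 CPM.

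The members were compared with 2 profiles over the 12 libraries, the mean of the 5 matrix members and the mean of Tm4sf1, Rgcc and Dmkn. This grouping was set beforehand and was not found in the data. Likeness was measured as the root mean square difference between z-scores of log2 CPM, as a description without a test, over libraries that share their diet, genotype and length deviations. The 6 genes nearest the mean profile of Dcn, Col3a1, Col1a2, Col1a1 and Sparc were Ccdc80 (0.272), Cdh11 (0.290), Col5a1 (0.292), Col6a2 (0.292), Col6a1 (0.313) and Col5a2 (0.327), where the median of all genes was 1.34. All 6 encode secreted matrix proteins or, for Cdh11, a cadherin of mesenchymal cells. Of the 5 members that made the profile, Dcn was farthest from it, at 0.802, and was nearer to the mean of Tm4sf1, Rgcc and Dmkn, at 0.487.

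The 6 genes nearest the mean of Tm4sf1, Rgcc and Dmkn were Usp39 (0.248), Gch1 (0.268), Mif (0.277), Tpst2 (0.290), Eif5a (0.311) and Mrrf (0.315), with a median of 1.40 over all genes. They are genes of splicing, cofactor synthesis, cytokine signalling, tyrosine sulfation and translation, and none is in the mesothelial, stromal or matrix lists. They differed less between diets than the trio: Eif5a, the most abundant, was at 0.46 in WT and 0.37 in meKO on the log2 scale. Among the members, the farthest pairs were Col3a1 with Tm4sf1, at 1.24, and Col3a1 with Dcn, at 1.20. Dcn with Dmkn, at 0.470, was nearer than any pair within the trio, of which Tm4sf1 with Dmkn, at 0.584, was the nearest.

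**Figure D5:**
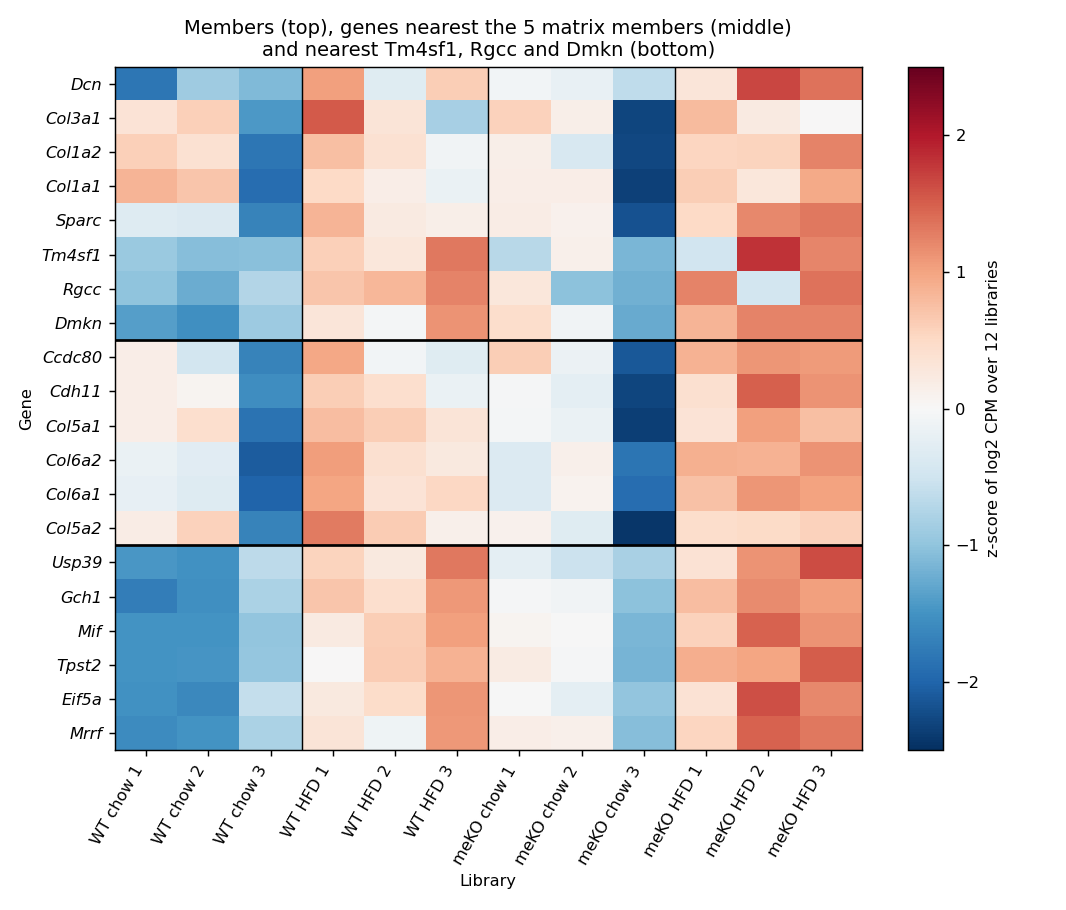
Z-scores of log2 CPM over the 12 libraries (columns) for the 8 members (top), the 6 genes nearest the mean of the 5 matrix members (middle) and the 6 nearest the mean of Tm4sf1, Rgcc and Dmkn (bottom). WT chow 3 and meKO chow 3 are the darkest blue in the matrix rows other than Dcn, where WT chow 1 is darkest (-1.81). All 3 WT chow libraries and meKO chow 3 are blue in the rows of the trio.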

How the data were processed

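The authors deposited 1 table of raw gene counts for 12 mouse libraries; the labels' protocols name Trizol extraction and TruSeq library preparation. The submitters' processing notes list mm10 and DESeq2 without a role; the aligner, counter and strand setting are not given in the sources used here. Rows without a gene symbol held 0.440% of the counts. Counts were fitted with edgeR 4.0.16 (TMM, filterByExpr, robust quasi-likelihood test, R 4.3.3), as 4 group means over all 12 libraries, with Benjamini-Hochberg adjustment over 12339 genes and calls at an adjusted p of 0.05. CPM are TMM-scaled. The fit was tested on simulated data. Replicates are numbered within groups and pair nothing. Transcript lengths are GENCODE vM21's longest transcript per gene; gene positions and upstream windows are RefSeq's (GRCm38.p6). Alternatives, 22 in all, used limma 3.58.1, DESeq2 1.42.0, other scalings and filters, a length and GC correction, and each library left out; leaving out both chow libraries low in collagen was chosen after seeing the data. Named were all members, the highest or most changed genes of each list, list genes that were called, and the 6 nearest genes per profile. Members and lists were chosen with earlier results of these data known. Of the list genes, 1 is not reported here.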

Additional observations from a re-analysis of the deposited data

How the results depend on the processing

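Of the members' meKO differences under 22 alternatives, 167 kept their direction and side of the threshold, 7 passed it, and 2 changed sign: Col3a1 was at -0.0031 without meKO chow replicate 3, the lowest of its values with 1 library left out (highest 0.73), and at -0.0094 without both chow libraries low in collagen. The number of members called in meKO, 0 in the edgeR test, was 1 by DESeq2, 4 by voom with library quality weights and 0 to 2 with 1 library left out. The cause was not tested for any change below. The rarest member, Tm4sf1, rests on as few as 19 counts in a library.

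Genes called in meKO (13) were 227 by DESeq2, 398 with quality weights, 42 with the length and GC correction, 1 with only the 2 groups compared, 8 without both low chow libraries and 1 to 135 with 1 library left out. In WT (2634) they were 6411 with quality weights, 1427 with the correction, 4906 without both low libraries and 96 to 4921 with 1 left out. Between genotypes on chow (10) they were 591 by DESeq2, 4047 with quality weights, 2 by library totals, 2 by limma-voom, 5 with 2 groups, 4 with the correction, 2495 without both low libraries and 2 to 2543 with 1 left out. On HFD (10) they were 53 by DESeq2, 128 with quality weights, 5 by limma-voom, 34 with 2 groups and 3 to 16 with 1 left out. For the interaction (2) they were 15 by DESeq2, 295 with quality weights, 1 with at least 10 counts in every library, 4 with the correction, 68 without both low libraries and 1 to 56 with 1 left out; a fit of 2 groups does not apply.

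Mesothelial genes called higher in WT (3) were 5 by DESeq2 and 7 with quality weights, and in meKO (0) 2 by each. No paired analysis was possible because the labels give no replicate numbers that the groups share.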
